A study of Mus musculus with 6 samples.

Results

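The mitochondrially encoded transcripts are the genes of a deposited mouse RNA-seq table whose name begins with mt-. The table holds 5 of them, mt-Nd2, mt-Nd3, mt-Nd4l, mt-Nd4 and mt-Cytb, among 1386 genes and loci. The RNA came from epithelial cells of the intestine of wild-type (WT) mice kept on a normal chow diet. From 8 weeks of age the mice received 400000000 Akkermansia muciniphila (Akk, a bacterium of the gut mucus) by mouth each day for 7 weeks, or PBS, the carrier, and 3 libraries were made per group. The title of the series places the study in the jejunum and concerns lipid absorption and AMPK. The labels give neither the strain and sex of the mice nor whether a library came from a single mouse, so the tests below measure only the spread between these libraries, which may be technical.

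Mitochondria keep a small circular genome of their own. It encodes hydrophobic core subunits of the respiratory chain and of ATP synthase, together with the rRNAs and tRNAs needed to translate them, while every other subunit is encoded in the nucleus and imported. The genome is transcribed as long polycistronic RNAs, from which the tRNAs are cut out and the mRNAs are released and given short poly(A) tails. Absorptive cells of the intestine spend much of the ATP made by this chain on ion pumping and lipid packaging.

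Of the 37 genes annotated on the mouse mitochondrial genome, 13 encode proteins, and 5 of those 13 were listed, all as higher in Akk, as were 25.0% of the table. Complex I, the NADH dehydrogenase that feeds electrons into the chain, had 4 of its 7 mitochondrially encoded subunits in the table. Complex III, the cytochrome bc1 complex, had its 1 mitochondrially encoded subunit. None of the 3 subunits of cytochrome c oxidase (complex IV), the 2 of ATP synthase (complex V), the 2 rRNAs or the 22 tRNAs was listed. All 5 transcripts are encoded on the plus strand of the reference, as are 12 of the 13 protein genes, and mt-Nd6, the gene on the minus strand, was not listed. The table holds only genes with a p-value of at most 0.0498 and a fold difference of at least 1.5 in the authors' deposited table, so a gene that is not listed either missed these limits or went unmeasured, which cannot be told apart. It also follows that the direction of the 5 transcripts was fixed by the authors' selection on the same 6 libraries, and no test of them on these libraries is independent evidence.

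The 3′ ends of the 5 genes are shown because mitochondrial mRNAs need not encode a whole stop codon. Each line gives the last 30 bases on the plus strand, 5′ to 3′, from the GENCODE transcripts of GRCm38, with the encoded stop bases in capitals.
mt-Nd2, chrM:4922-4951: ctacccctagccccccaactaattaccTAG
mt-Nd3, chrM:9777-9806: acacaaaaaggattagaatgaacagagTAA
mt-Nd4l, chrM:10144-10173: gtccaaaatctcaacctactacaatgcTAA
mt-Nd4, chrM:11515-11544: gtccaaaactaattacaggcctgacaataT
mt-Cytb, chrM:15259-15288: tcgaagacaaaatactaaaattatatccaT
In mt-Nd2, mt-Nd3 and mt-Nd4l the length is a whole number of codons and ends in a complete stop. In mt-Nd4 and mt-Cytb a single T follows the last whole codon, and the poly(A) tail completes the stop, as is known for many mammalian mitochondrial mRNAs. Transcripts with a complete stop and with an incomplete one were thus both among the 5.

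The genes mt-Nd4l and mt-Nd4 are neighbours and share 7 bases, shown in capitals in the stretch chrM:10144-10196.
mt-Nd4l into mt-Nd4: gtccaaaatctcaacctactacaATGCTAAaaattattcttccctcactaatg
The shared bases hold the start codon of mt-Nd4 and the stop codon of mt-Nd4l, which are known to be kept on a single bicistronic mRNA. Fragments that cover the junction could have been counted for either gene, and how they were assigned is not given in the sources used here. A second ambiguity lies in nuclear copies of mitochondrial DNA. The mt-Nd4l transcript matched the unprocessed pseudogene Gm10222 on chromosome 1 over 294 bases at 100% identity. The mt-Nd4 transcript matched Gm28439, also on chromosome 1, over 876 bases at 100% identity, and mt-Nd3 matched Gm28438 there over 345 bases at 99.7%. For mt-Cytb the closest copy was Gm11410 on chromosome 4 (92.9% over 1142 bases), and for mt-Nd2 a stretch of 510 bases, 49.1% of the gene, matched Gm13339 on chromosome 2 at 96.7%. None of the nuclear genes with a match to the 5 transcripts was listed, and how reads shared with them were placed was not tested.

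Depth was recovered from the files, since within a gene the ratio of count to FPKM (fragments divided by gene length and by library depth) depends only on its length and the library's depth. Over 47 other genes with a single annotated transcript, each library had an implied depth between 33680894 and 41983093 fragments. The 5 transcripts, used as a check, gave the same depth within 0.037% in every library, so their FPKM values are counts over the annotated gene length. The absolute depth, and with it each share of depth given here, rests on the annotated lengths of these genes, while ratios between libraries do not. Each transcript had between 11699 and 1059306 counts in a library. Counting error was therefore at most 0.925% of a value, far below the spread between libraries. One library, PBS replicate 2, stood apart in the table, with the highest value for 1022 of the 1040 genes that were listed as lower.

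The transcript mt-Cytb (ENSMUSG00000064370, chromosome M, 14145 to 15288) encodes cytochrome b, the subunit of complex III that carries electrons between its quinone sites. Its FPKM in PBS replicates 1 to 3 was 19147, 12806 and 12048, and Akk replicates 1 to 3 had 21129, 23514 and 18414. PBS replicate 1 lay above Akk replicate 3, so the groups overlapped, while the other PBS libraries lay well below all Akk libraries. The mean FPKM was 14667 ± 3898 for PBS and 21019 ± 2552 for Akk (SD, n = 3). No listed gene had a higher count or FPKM than mt-Cytb in any of the 6 libraries.

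The transcript mt-Nd4 (ENSMUSG00000064363, 10167 to 11544) encodes an antiporter-like, proton-pumping subunit in the membrane arm of complex I. Its FPKM in PBS replicates 1 to 3 was 9871, 6700 and 6308, and Akk replicates 1 to 3 had 11218, 12392 and 9855. PBS replicate 1 again exceeded the lowest Akk library, here by a narrow margin. The transcript mt-Nd2 (ENSMUSG00000064345, 3914 to 4951), another antiporter-like subunit of that arm, had 7663, 5163 and 5234 FPKM in PBS and 8447, 9211 and 7326 in Akk. The groups of mt-Nd2 overlapped in the same way, through PBS replicate 1 and Akk replicate 3.

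The transcript mt-Nd4l (ENSMUSG00000065947, 9877 to 10173) encodes a small membrane subunit of complex I. It had 6803, 4793 and 5015 FPKM in PBS and 7616, 7399 and 7291 in Akk. For mt-Nd4l, unlike the other 4, every Akk library lay above every PBS library, and the 3 Akk values differed little (coefficient of variation 2.23%, against 19.9% in PBS). Of all 1386 listed genes, 9.38% had Akk above PBS without overlap, and of the 346 listed as higher 130 did (37.6%). The selection of the table used the same contrast, so nothing is read from 1 of 5. The transcript mt-Nd3 (ENSMUSG00000064360, 9459 to 9806) encodes a complex I subunit at the junction of the membrane and matrix arms. It was the lowest of the 5, with 1882, 998 and 1114 FPKM in PBS and 2055, 2515 and 1733 in Akk, and its groups overlapped. It also had the widest spread, with a coefficient of variation of 36.1% in PBS and 18.7% in Akk.

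**Figure D1:**
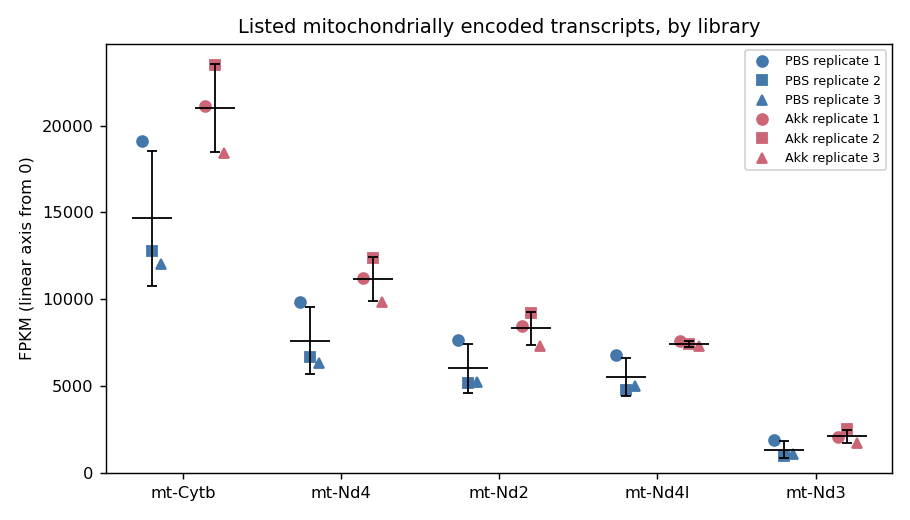
FPKM of the 5 listed mitochondrially encoded transcripts in each library, on a linear axis from 0; bars give the mean and SD of 3 libraries per group. PBS replicate 1 sits within the range of the Akk libraries for 4 of the 5 transcripts, at 19147 FPKM for mt-Cytb, and below it for mt-Nd4l, while PBS replicates 2 and 3 sit below them.

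The order of the levels per length was the same in all 6 libraries: mt-Cytb, mt-Nd4, mt-Nd2, mt-Nd4l, mt-Nd3. Within each group mt-Cytb lay above mt-Nd4, and mt-Nd4l above mt-Nd3, without overlap between libraries. The levels of mt-Nd2 and mt-Nd4l were the closest, at 8328 ± 948 and 7435 ± 166 FPKM in Akk and 6020 ± 1424 and 5537 ± 1102 in PBS (SD, n = 3). Their ranges overlapped in both groups, although mt-Nd2 was the higher of the pair in all 6 libraries, and those of mt-Nd4 and mt-Nd2 overlapped in PBS. The FPKM of mt-Nd4l was 0.597 to 0.795 of that of mt-Nd4, its partner on the shared mRNA, in a library.

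**Figure D2:**
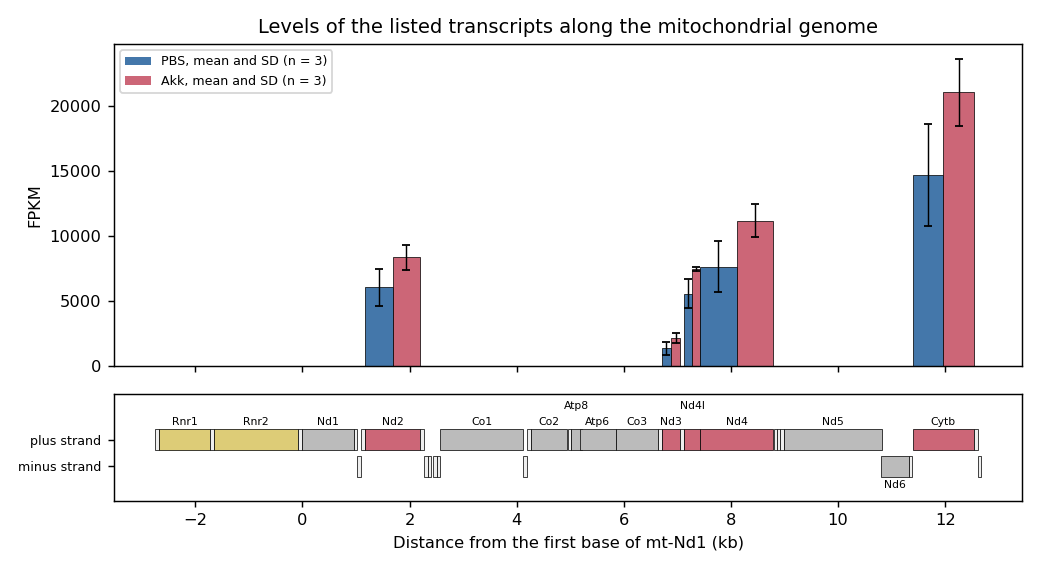
Mean FPKM with SD (3 libraries per group) of the 5 listed transcripts at their places on the mitochondrial genome, drawn as distance in kb from the first base of mt-Nd1; the lower track shows genes by strand, with listed genes in red, other protein genes in grey, rRNAs in yellow and tRNAs in white. The listed genes lie in 3 places along the plus strand, and mt-Cytb at the far end is the highest, at 21019 FPKM in Akk.

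Relative to mt-Nd4, the levels of mt-Cytb and mt-Nd2 kept narrow ratios. The FPKM of mt-Cytb over that of mt-Nd4 was 1.94, 1.91 and 1.91 for PBS replicates 1 to 3, against 1.88, 1.90 and 1.87 for the Akk replicates. This ratio thus spanned a 1.04-fold range while the levels themselves spanned far more, and it was lower in every Akk library than in every PBS library. The ratio of mt-Nd2 to mt-Nd4 was 0.776, 0.771 and 0.830 in PBS and 0.753, 0.743 and 0.743 in Akk, again without overlap. The ratios of mt-Nd3 and mt-Nd4l to mt-Nd4 were more variable, with a 1.36-fold and a 1.33-fold range over the libraries, and their groups overlapped. The 4 ratios share mt-Nd4 as their denominator, so they are not independent of each other. With 3 against 3 libraries a 2-sided exact permutation p cannot fall below 0.10. How often other pairs of genes separate in this way was not computed, so nothing is read from the lack of overlap.

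Summed, the 5 transcripts took 4.61%, 3.10% and 2.98% of the implied depth in PBS replicates 1 to 3, against 5.14%, 5.66% and 4.50% for the Akk replicates. The mean was 5.10% ± 0.580 in Akk and 3.56% ± 0.910 in PBS (SD, n = 3), a ratio of 1.43. With factors computed from the listed genes in place of the depth, this ratio was 2.793 (RLE), 2.875 (TMM) and 2.139 (upper quartile). PBS replicate 1 fell inside the Akk range, so the groups overlapped. Leaving out PBS replicate 1, 2 or 3 gave a ratio of 1.68, 1.34 or 1.32. The transcripts made up 47.4% to 48.5% of all listed counts in the Akk libraries, against 50.5%, 18.8% and 35.5% in PBS replicates 1 to 3. The low share in PBS replicate 2 goes with its other listed genes, which took 13.4% of its depth against 4.52% to 6.11% in the other 5 libraries. The share of mitochondrial transcripts is also a common measure of RNA quality and of damaged cells, and that part was not tested.

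The comparison the design implies is Akk against PBS. By edgeR's quasi-likelihood test, with Benjamini-Hochberg adjustment over all 1386 genes, 0 of the 5 passed at 0.05, and 0.0% of all listed genes did (57.1%, or 791, had an unadjusted p under 0.05, and 0 of the 5 did). With limma on log2(FPKM + 0.1) 0 of the 5 passed as well, and 1 of all 1386 genes did. The log2 fold change of Akk over PBS was 0.55 (SE 0.33) for mt-Nd4, with an edgeR adjusted p = 0.159, and 0.52 (SE 0.33) for mt-Cytb, with an adjusted p = 0.179. It was 0.66 (SE 0.40) for mt-Nd3, 0.47 (SE 0.33) for mt-Nd2 and 0.43 (SE 0.33) for mt-Nd4l, with edgeR adjusted p of 0.168, 0.221 and 0.263. Their median was 0.52, beside 0.75 over the other 341 genes listed as higher and -1.85 over all listed genes. The smallest unadjusted p among the 5 was 0.134, and each fold change was less than 2 of its standard errors from 0. With DESeq2 2 of the 5 passed, mt-Cytb (adjusted p = 0.0408) and mt-Nd4 (adjusted p = 0.0426), where 56.7% of all listed genes passed, 5.34% as higher. These shares count as not passing the 262 of 1386 genes that had no DESeq2 adjusted p. A p that misses the threshold does not show that the levels were equal.

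**Figure D3:**
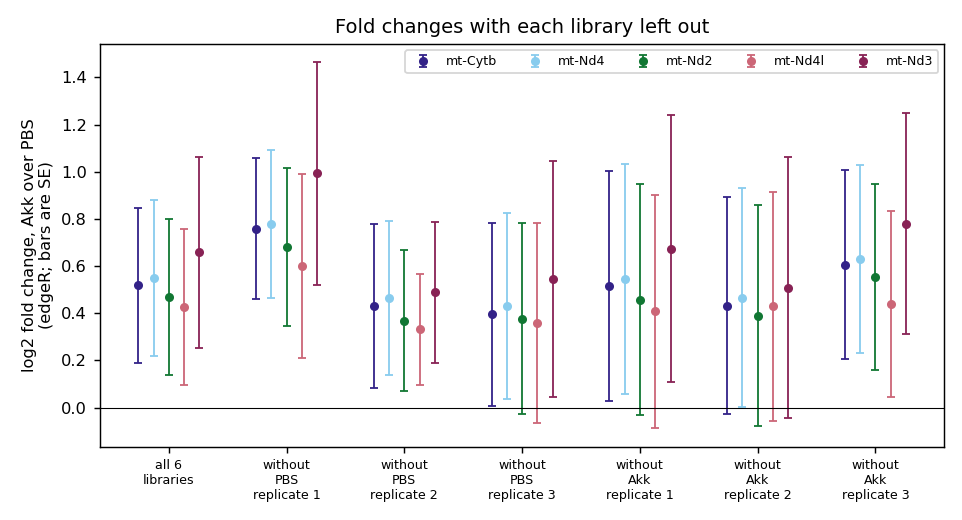
Log2 fold change (Akk over PBS, edgeR) of the 5 transcripts with all 6 libraries and with each library left out in turn; bars are standard errors. All values lie above 0, and they are largest without PBS replicate 1, where mt-Nd3 reaches 0.99.

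Among the single libraries, leaving out PBS replicate 1 moved the median log2 fold change of the 5 the most, from 0.52 to 0.76. This library exceeded the mean of the other PBS libraries 1.47-fold for mt-Nd2, 1.78-fold for mt-Nd3, 1.39-fold for mt-Nd4l, 1.52-fold for mt-Nd4 and 1.54-fold for mt-Cytb. It was the highest PBS library for all 5, but for 43 of the other 341 genes listed as higher (12.6%), whose median there was 0.841 of the other PBS libraries. That median and the share describe a table selected on these libraries, and the difference was not tested. Without PBS replicate 1, the log2 fold changes were 0.60 for mt-Nd4l to 0.99 for mt-Nd3 and the smallest edgeR adjusted p was 0.0541, where 53.0% of all listed genes passed. PBS replicate 2, which exceeded the other PBS libraries by a median of 5.77-fold for the genes listed as lower, was at 0.667 to 0.828 of them for the 5 transcripts. Without it the median log2 fold change of the 5 was 0.43 and that of all listed genes -0.66, and 0 of the 5 passed, against 19.4% of all listed genes.

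The authors' deposited table gives the 5 transcripts larger differences than their FPKM do. In the authors' deposited table the log2 fold changes were 0.69 for mt-Nd2, 0.79 for mt-Nd3, 0.66 for mt-Nd4l, 0.76 for mt-Nd4 and 0.73 for mt-Cytb, with p-values of 0.0242 to 0.0398. The limits of that table were a p of 0.0498 and a log2 fold change of 0.59, and 65.6% to 86.4% of the 346 genes listed as higher had a larger fold in it than each of the 5. The log2 ratio of mean FPKM was 0.47, 0.66, 0.43, 0.55 and 0.52 in the same order, which is 0.14 to 0.24 below the authors' values. Among genes listed as higher this offset was not particular to the 5. Over the other 339 genes listed as higher the authors' values lay above the ratio by a median of 0.20. Over the 1040 listed as lower they also lay above it, by a median of 1.07, but there this made the differences smaller. The median of those genes was -1.11 in the authors' table and -2.19 by the ratio. By this ratio only mt-Nd3, at 1.58-fold, reached the 1.5-fold limit, while mt-Nd4 was at 1.46-fold. Of the other genes listed as higher, 212 of 339 with no library at 0 reached it. Over all listed genes, 15.5% were at least 1.5-fold higher in Akk by this ratio. All 1040 genes listed as lower reached 1.5-fold too, as lower in Akk. How the authors normalised their fold changes is not given in the sources used here.

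**Figure D4:**
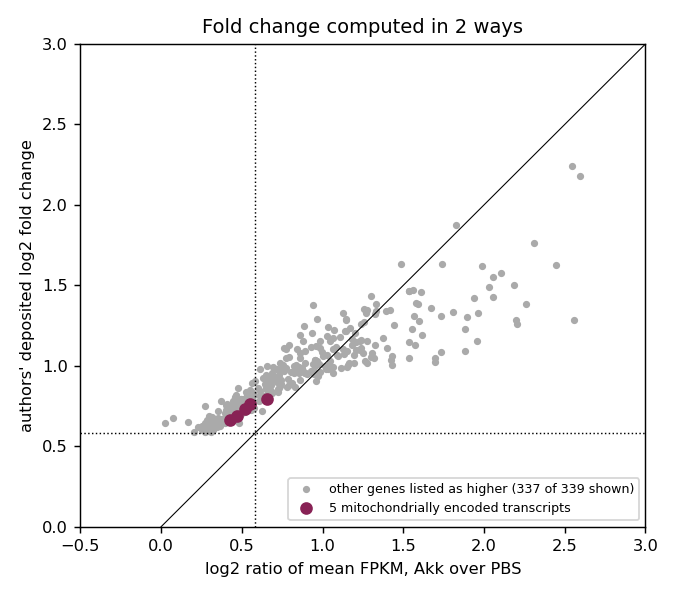
Log2 fold change of Akk over PBS in the authors' deposited table (vertical) against the log2 ratio of mean FPKM (horizontal) for genes listed as higher; dotted lines mark a 1.5-fold difference and the solid line equality. The 5 mitochondrially encoded transcripts lie above the line of equality, and the other genes listed as higher lie a median of 0.20 above it. Among the 5, mt-Nd3 alone lies past 1.5-fold on both axes.

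Of 327 nuclear-encoded genes of mitochondria in the lists used, 27 were listed, and all 27 were listed as lower in Akk, against 75.0% of the whole table. The lists do not hold every such gene. Outside them, Smdt1, Pcx (pyruvate carboxylase), Coq4 (needed to make coenzyme Q) and Slc25a44 (a mitochondrial carrier) were listed as higher; they were named after their values were seen, and other such genes were not looked for. By edgeR with all libraries 0 of them passed, and all 27 had their highest value in PBS replicate 2, by a median of 3.67-fold over the other PBS libraries. Their median log2 fold change was -1.73, and -0.70 without that library. There 10 of the 27 passed as lower and 0 as higher (17.7% and 1.73% of all listed genes). Those shares are over the whole table, with its genes listed as higher, while all 27 were listed as lower. The same holds for the 17.7% given beside the lists below. None of the 83 nuclear-encoded subunits of the respiratory chain and ATP synthase was listed, so the proteins that assemble with the 5 gene products cannot be compared with them here.

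Genes that act on mitochondrial RNA were 5 of 23 listed. Lrpprc, which binds and stabilises mitochondrial mRNAs, had 7.35, 40.3 and 7.12 FPKM in PBS and 4.97, 4.46 and 3.68 in Akk. Its Akk libraries lay below all PBS libraries, which was so for all 5 of these genes, each listed as lower. Of all listed genes 65.0% had PBS above Akk without overlap, a share that also counts genes listed as higher. Pnpt1, a mitochondrial polynucleotide phosphorylase that takes part in RNA decay, had 6.97, 25.6 and 8.63 FPKM in PBS and 3.90, 4.91 and 3.83 in Akk, and it fell by 0.89 on the log2 scale without PBS replicate 2 (edgeR adjusted p = 0.0434; 0.0861 with all libraries). Elac2, which cuts the 3′ ends of tRNAs out of the polycistronic RNA, had 2.18, 12.7 and 2.15 FPKM in PBS and 1.23, 1.68 and 1.76 in Akk. Rexo2, an oligoribonuclease, had 3.90, 21.9 and 4.16 in PBS and 3.24, 2.82 and 2.42 in Akk. All 4 were highest in PBS replicate 2.

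Of 23 genes of mitochondrial DNA maintenance and transcription, 1 was listed, Pprc1, a coactivator of the PGC-1 family, with 0.803, 8.33 and 0.916 FPKM in PBS and 0.315, 0.525 and 0.693 in Akk. Tfam, Polrmt and Ppargc1a were not listed. Of 89 genes of mitochondrial ribosomes and translation, 5 were listed, and 3 of the 5 passed as lower without PBS replicate 2, as did 17.7% of all listed genes. The ribosomal protein gene Mrps28 had 9.65, 27.6 and 8.69 FPKM in PBS and 2.98, 3.48 and 3.30 in Akk. Without PBS replicate 2 its log2 fold change was -1.49 (SE 0.21; edgeR adjusted p = 0.0299). Mrpl13, another ribosomal protein gene, and Tsfm, an elongation factor, had log2 fold changes of -0.94 and -0.87 there.

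Of 37 genes of mitochondrial chaperones, proteases and import 10 were listed, and 3 passed as lower without PBS replicate 2 (17.7% of all listed genes). Hspd1, the chaperonin of the matrix, had 35.2, 295 and 33.1 FPKM in PBS and 22.9, 23.9 and 17.7 in Akk. Hspa9, the matrix Hsp70, had 53.8, 178 and 53.6 in PBS and 35.0, 33.7 and 31.4 in Akk. Of 44 assembly factors 4 were listed, among them Ndufaf7, a methyltransferase needed to assemble complex I, with 3.71, 10.7 and 3.83 FPKM in PBS and 2.13, 1.84 and 2.24 in Akk. Of 17 genes of the tricarboxylic acid cycle, Idh2 and Suclg2 were listed. Idh2, the NADP-dependent isocitrate dehydrogenase of mitochondria, had 17.7, 54.3 and 11.9 FPKM in PBS and 7.03, 6.14 and 7.24 in Akk. None of the 11 genes of mitochondrial dynamics and mitophagy was listed.

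Markers of crypt and villus cell types were also in the table. Listed as lower, and highest in PBS replicate 2, were 14 of 16 Paneth cell, 9 of 18 crypt stem cell and 31 of 32 proliferation markers. The summed FPKM of the proliferation markers was 45.1 to 61.8 in Akk and 105, 1039 and 84.9 in PBS replicates 1 to 3. Of 18 markers of absorptive enterocytes, Apoa4, Apob and Apoc3 were listed, all as higher, with a sum of 4538 to 6180 in Akk and 2343, 657 and 3862 in PBS replicates 1 to 3. The mitochondrial sum was 45366, 30460 and 29718 FPKM in PBS replicates 1 to 3, an order unlike that of the enterocyte sum. In Akk replicates 1 to 3 the enterocyte sum was 5653, 6180 and 4538. The mitochondrial sum there was 50465, 55030 and 44619, in the same order. Of the other 341 genes listed as higher, 231 were lowest among the Akk libraries in Akk replicate 3. Akk replicate 2 was the highest Akk library for 149 of them, so nothing is read from the shared order. Of 12 goblet cell markers, Muc13 and Zg16 were listed as higher and Ccl9 as lower, and of 12 enteroendocrine markers, Gip and Sst were listed as higher and Gcg as lower. Of 20 immediate early and dissociation genes, Fosb was listed as higher and Myc as lower. Markers of tuft cells, leukocytes, stromal cells and red blood cells (0 of 8, 13, 11 and 5) were not listed, nor were Vil1 and Alpi, so the labelled epithelial identity could be checked only through the listed markers. In such bulk samples fewer cells of a type and less RNA per cell cannot be told apart, and the part of cell type in the mitochondrial result was not tested.

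The other listed genes were compared with the pattern of the 5 transcripts. Likeness was the root mean square difference, over 6 libraries, between a gene's log2(FPKM + 0.1), centred on its own mean, and the mean of the 5 transcripts. The 5 transcripts themselves lay 0.03 to 0.13 from their mean. Each of the 5 is part of that mean, which shortens its own distance. The 5 therefore cannot be ranked against the 1203 other listed genes with a mean FPKM of at least 1. Among those 1203 the nearest was Insig1, a sterol-regulated protein of the endoplasmic reticulum, at 0.14. Insig1 had 20.3, 14.8 and 13.9 FPKM in PBS and 25.2, 21.1 and 19.7 in Akk. As for mt-Cytb, its PBS replicate 1 exceeded the lowest Akk library. Next came Itgb2l (0.15), Trib1 (0.20), Smdt1 (0.20), Mthfsl (0.21), Cystm1 (0.22), Bhlhe40 (0.23) and 9430038I01Rik (0.23). Smdt1, a nuclear-encoded subunit of the mitochondrial calcium uniporter, had 100.1, 81.1 and 98.6 FPKM in PBS and 111, 146 and 114 in Akk. The median distance was 0.46 over the 290 candidates listed as higher and 1.44 over those listed as lower.

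**Figure D5:**
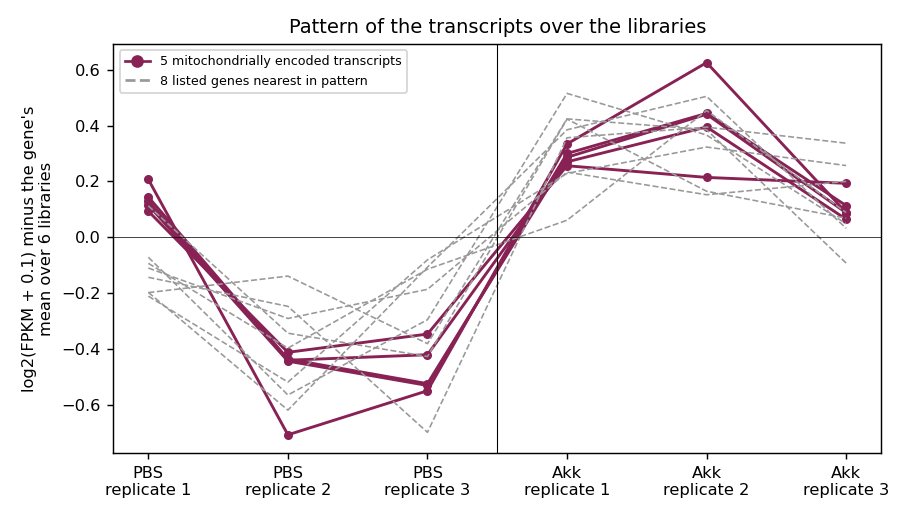
Log2(FPKM + 0.1) of each gene minus its mean over the 6 libraries, for the 5 mitochondrially encoded transcripts (solid lines) and the 8 listed genes nearest in pattern (dashed lines). The 5 transcripts are above their mean in PBS replicate 1 (0.09 to 0.21) and in all Akk libraries, and below it in PBS replicates 2 and 3.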

How the data were processed

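The authors deposited whole-number read counts and FPKM per gene for 6 libraries, per the file headers, along with their own p-value and log2 fold change per gene. The mm10 build is named in the submitters' processing notes; the aligner, counter, strand setting, annotation and test used are not named in these sources. Per the labels' protocols, RNA was extracted with Trizol for an Illumina mRNA library. Left out were 2 lines of annotation text; 1 name turned into a date was restored. Gene places and lengths are those of GENCODE for GRCm38, the assembly mm10 names. Implied depth was the library size in edgeR 4.0.16 (glmQLFTest, filterByExpr, R 4.3.3), since factors computed from genes selected as different are biased. Such factors were alternatives, as were DESeq2 1.42.0, limma 3.58.1 on log2(FPKM + 0.1 or 1), other filters, the replicate block and leaving out libraries. The code was checked on simulated counts with less spread between libraries than here, which measures neither its power on these libraries nor the choice of depth. Copies were sought with BLAST 2.17.0 in the GENCODE transcripts. Members and lists were chosen with earlier results of these data known. Named were all members, up to 4 listed genes per list by smallest p, and the 8 nearest genes; genes named as not listed, and those left out for length, were chosen after seeing the values.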

Additional observations from a re-analysis of the deposited data

How the results depend on the processing

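All 5 transcripts stayed higher in Akk under each of the 16 alternatives, and none passed the edgeR or limma test under any. The 0 of 5 became 2 with DESeq2, in which 262 of 1386 adjusted p were NA. Over all listed genes the count of 0 became 786 with DESeq2 (74 higher, 712 lower), 1 with limma on log2(FPKM + 0.1), 6 with the replicate block, and 0 to 734 with each library left out (734, 269 and 732 without PBS replicates 1, 2 and 3, and 0 without any 1 Akk library). With factors computed on this table, the 5 had a median log2 fold change of 1.485 (RLE), 1.527 (TMM) and 1.099 (upper quartile) and a ratio of summed shares of 2.793, 2.875 and 2.139, while the median of all listed genes went from -1.85 to -0.15, -0.17 and -0.63. Relative to that median the 5 were at 2.37 with depth as library size and 1.64, 1.70 and 1.73 with these factors. Leaving out each library gave a median of 0.396 to 0.758 and a share ratio of 1.322 to 1.678. Taking the mitochondrial counts out of the library size gave a median of 0.54. The deviations of same-numbered libraries correlated across genes at 0.24, -0.05 and -0.30, which shows no steady pairing. In a table selected on these libraries such values cannot exclude one. With the replicate block 0 of the 5 passed. Counting error, at most 0.925% of a value, was below the spread between libraries.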

Other observations

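Genes of the mitochondrial and integrated stress response, which also hold the enzymes of serine and one-carbon metabolism, were listed 7 of 15, all as lower in Akk, against 75.0% of the table. All 7 were highest in PBS replicate 2, by a median of 7.12-fold over the other PBS libraries, and 0 passed the edgeR test with all libraries. Without that library 3 passed as lower, as did 17.7% of all listed genes. Pck2, the mitochondrial phosphoenolpyruvate carboxykinase, had 1.33, 10.7 and 1.14 FPKM in PBS and 0.400, 0.424 and 0.506 in Akk, with a log2 fold change of -1.30 (SE 0.24; edgeR adjusted p = 0.0352) without it. Asns, asparagine synthetase, had 8.03, 29.6 and 5.62 FPKM in PBS and 1.89, 3.53 and 3.44 in Akk, with a log2 fold change of -1.21 (SE 0.33; edgeR adjusted p = 0.0472) without it.

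Of 19 glycolysis genes 2 were listed, in opposite directions. Slc2a1, the glucose carrier GLUT1, had 4.11, 6.54 and 3.71 FPKM in PBS and 1.32, 1.36 and 2.80 in Akk. Pfkfb3, which makes an activator of phosphofructokinase, had 10.0, 3.30 and 9.43 in PBS and 16.8, 16.9 and 10.6 in Akk. Neither had overlapping groups (65.0% of all listed genes had PBS above Akk without overlap, and 9.38% Akk above PBS), and neither passed the edgeR test with all libraries or without PBS replicate 2.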
